A study of Sus scrofa with 6 samples.

Results

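FABP4, GPNMB, SPP1, CHI3L1, ARG1, SMPDL3A and APOE are 7 genes that macrophages can express, grouped under the handling of lipid and cell debris. They were followed here through 3 stages of growth of the pig ovarian follicle, the unit of oocyte and surrounding somatic cells in which an egg matures. All probe sets annotated to only 1 of these symbols were taken, which gave 12 of the 24123 probe sets on an Affymetrix porcine array. Of these, 8 passed the filter on dim signals, and each of the 7 genes kept at least 1. The genes were picked with their values on these same arrays in view, so their own stage differences are given as a description, with a standard error and no test.

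The study isolated follicles from ovaries of prepubertal gilts by morphology and diameter and hybridised their total RNA. The tissue was whole follicle of the domestic pig (Sus scrofa), with no named allele, transgene or treatment in any stage. The titles define 2 arrays for primordial follicles, the resting pool before growth begins, 2 for middle stage follicles and 2 for last stage follicles. The titles call the 2 arrays of a stage biological replicates, but the labels do not say whether they came from separate animals or pools. Every p-value below thus sets a stage difference against the spread between these samples only, a spread estimated in part from other probe sets. The free-text description calls all 6 arrays primordial, and the stage used here is that of the title.

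The primordial label did not sit well with the markers. Summed over 9 oocyte markers on the array, the signal was 424.2 and 426 on the primordial-labelled arrays, with BMP15, DPPA5, PADI6 and DDX4 averaging at most 16, a level near the floor of the array. The same sum was 16251.8 to 17643.7 on the middle stage arrays and 705.5 to 723.3 on the last stage arrays. INHA, the inhibin alpha subunit made by granulosa cells, had signals of 11118.3 and 16318.7 on the primordial-labelled arrays, 2218.9 and 3822.6 on the middle stage arrays, and 14359.2 and 13617.8 on the last stage arrays. Other granulosa genes did not share that profile: AMH, which marks small growing follicles, had 198.6 and 273.0, then 969.5 and 1763.9, then 106.6 and 112.7 at the same stages. Of 8 granulosa markers tested, 5 fell and 1 rose in middle minus primordial, and FSHR and INHBA did not pass (0.13 ± 0.23 and 0.12 ± 0.23, adjusted p = 0.666 and 0.702, limma). In last minus middle 5 of the 8 rose and 2 fell. Every direction below is therefore one between arrays as they were labelled.

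Macrophages take up modified lipoproteins and dying cells, break their lipids down in the lysosome, store the products in droplets and hand cholesterol on to lipoproteins. In human and mouse tissues this state comes with fatty acid carriers, lysosomal enzymes, apolipoproteins and a set of secreted proteins, and the roles given below come mainly from those species. In the ovary, macrophages clear the remains of follicles that die during growth and of old corpora lutea. Several of the 7 genes are not particular to macrophages: FABP4 is also made by adipocytes and capillary endothelium, APOE by steroid-making cells, SPP1 by epithelia and bone cells, and ARG1 by hepatocytes.

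All 7 genes gave their highest signals on the primordial-labelled arrays, and all 7 were much lower at the middle stage. On the log2(signal + 16) scale, the middle minus primordial differences ran from -7.18 for FABP4 to -2.98 for CHI3L1, with a median of -5.18 over the 7 genes. The median over all 5432 genes tested was 0.06. From the middle to the last stage 5 of the 7 genes were higher, between 0.49 and 2.21, and CHI3L1 and SMPDL3A were lower. The arrays of these 2 stages overlapped for GPNMB and SMPDL3A, and most FABP4 signals there were at or under 16. SPP1, ARG1 and APOE were the higher genes without these limits. None of the 7 returned to its level on the primordial-labelled arrays.

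**Figure D1:**
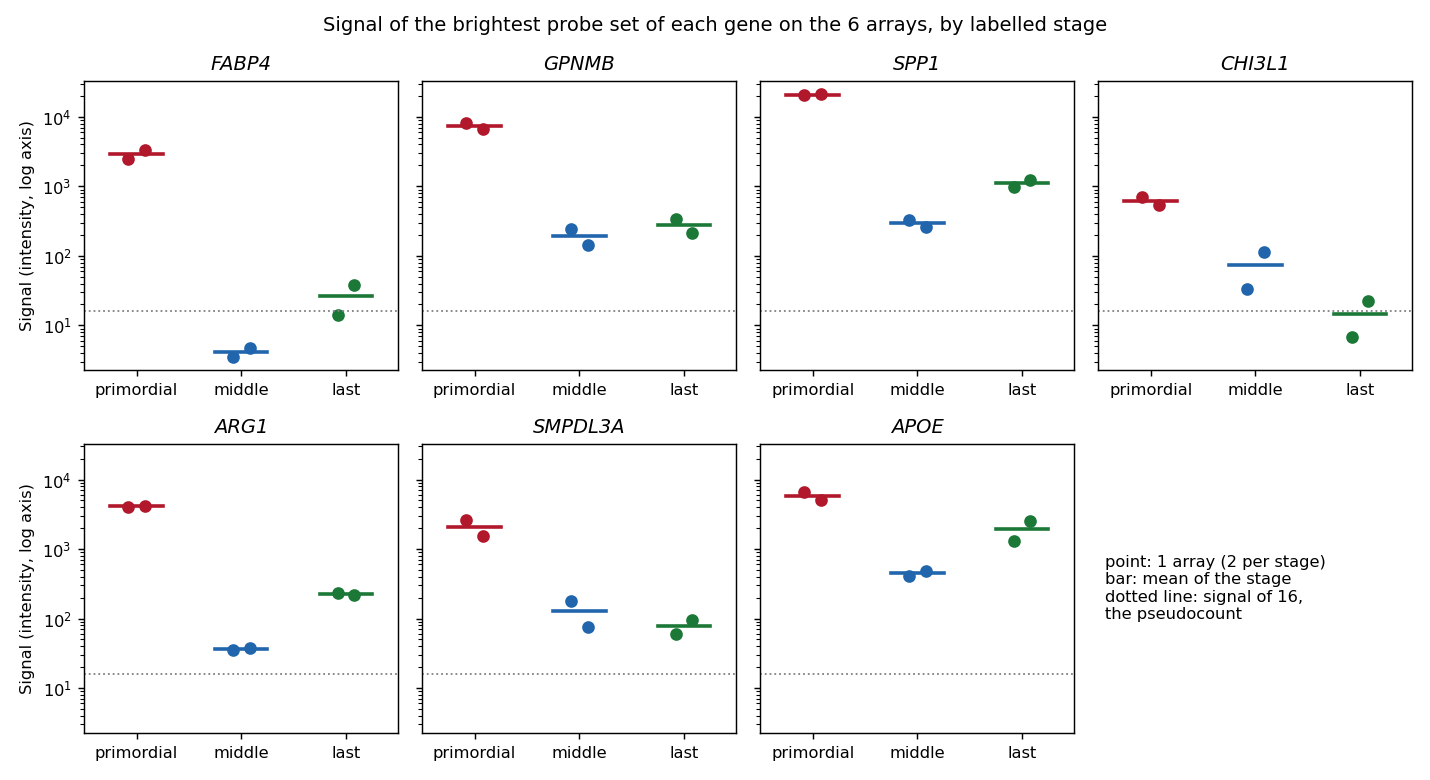
Signal (intensity, log axis) of the brightest probe set of each of the 7 genes on the 6 arrays, by labelled stage. Points are single arrays, bars are stage means, and the dotted line marks a signal of 16. Every gene has its 2 highest points on the primordial-labelled arrays, and FABP4 falls under the dotted line on both middle stage arrays.

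FABP4 is a small cytosolic carrier that binds fatty acids and shuttles them between membranes, droplets and the nucleus. Its signal was 2495.8 and 3365.7 on the primordial-labelled arrays, 3.5 and 4.8 on the middle stage arrays, and 14.0 and 38.4 on the last stage arrays. The middle and primordial arrays did not overlap, and 3 of the 4 later arrays were at or under 16, where values have little meaning of their own. The middle minus primordial difference was -7.18 ± 0.37 (SE, n = 2 arrays a stage, as in all differences below), and the last minus primordial difference was -6.17 ± 0.37. The size of these values, and their place among the 7 genes, depends on the pseudocount, because the later signals are so low: the first difference was -9.15 with a pseudocount of 1 and -5.44 with 64, a size below that of SPP1 at -5.87 with 64.

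GPNMB, a membrane glycoprotein of the late endosome that macrophages make under lysosomal load, was measured by 5 probe sets. The brightest had signals of 8190.7 and 6621.8 on the primordial-labelled arrays, 243.6 and 143.0 on the middle stage arrays, and 336.4 and 213.7 on the last stage arrays. Both later stages lay far below the primordial arrays and overlapped each other. The middle minus primordial difference was -5.18 ± 0.30, the last minus middle difference 0.49 ± 0.30 and the last minus primordial difference -4.70 ± 0.30. A second probe set ran the same way at lower signals, with 230.6 and 197.4, then 25.5 and 45.4, then 71.6 and 41.1 at the 3 stages in the same order. Its middle minus primordial difference was -2.18 ± 0.40, but it passed the filter on dim signals only through the primordial-labelled arrays. The other 3 probe sets of GPNMB stayed at or under 60.8 on every array and did not pass the filter, and their middle minus primordial differences were -1.26, -0.75 and -0.24.

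SMPDL3A, a phosphodiesterase related to acid sphingomyelinase that human macrophages induce when loaded with cholesterol, had signals of 2637.5 and 1529.5 on the primordial-labelled arrays. The middle stage arrays gave 179.0 and 76.6, and the last stage arrays 59.1 and 94.9. The middle stage mean was 6.13% of the primordial mean, and the last stage mean was 3.70%. The middle minus primordial difference was -3.91 ± 0.40 and the last minus primordial difference -4.47 ± 0.40. The last and middle arrays overlapped, with a difference of -0.56 ± 0.40 that was close to its standard error and came to -0.02 without the first middle stage array.

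APOE, the apolipoprotein that carries cholesterol away from macrophages and serves as the ligand of lipoprotein receptors, kept the largest share of its signal at the last stage. It had 6644.0 and 5011.4 on the primordial-labelled arrays, 413.3 and 479.8 on the middle stage arrays, and 1325.2 and 2554.0 on the last stage arrays. The 3 stages did not overlap. The last stage mean was 33.3% of the primordial mean, against shares of at most 5.46% for the other 6 genes. The middle minus primordial difference was -3.65 ± 0.30, and the last minus middle difference was 2.01 ± 0.30. The last minus primordial difference was -1.64 ± 0.30. The 2 last stage arrays differed, and without the brighter of them the last minus primordial difference was -2.11, whereas without the dimmer it was -1.17. A second APOE probe set did not pass the filter, at 56.1 and 101.7, then 19.8 and 5.9, then 14.4 and 52.7.

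SPP1 encodes osteopontin, a secreted phosphoprotein that binds integrins and CD44 on neighbouring cells. Its signal was 20411.8 and 21173.9 on the primordial-labelled arrays, 330.2 and 260.2 on the middle stage arrays, and 988.6 and 1249.2 on the last stage arrays. No 2 stages overlapped. For SPP1 the middle minus primordial difference was -6.07 ± 0.20, the last minus middle difference 1.87 ± 0.20 and the last minus primordial difference -4.21 ± 0.20. The middle stage mean was thus 1.42% of the primordial mean and the last stage mean 5.38%.

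CHI3L1 is a secreted chitinase-like protein that binds chitin without cutting it and is made by macrophages, neutrophils and cartilage cells. It had signals of 701.9 and 544.7 on the primordial-labelled arrays, 33.4 and 114.8 on the middle stage arrays, and 6.8 and 22.3 on the last stage arrays. Its stages stepped down without overlap, unlike SPP1, ARG1 and APOE, which were higher at the last stage than at the middle stage. The middle minus primordial difference was -2.98 ± 0.49, the last minus middle difference -1.44 ± 0.49 and the last minus primordial difference -4.42 ± 0.49. Its standard error was the widest of the brightest probe sets of the 7 genes, the 2 middle stage arrays were far apart, and a last stage array lay under 16.

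ARG1, the arginase that turns arginine into ornithine and urea and marks alternatively activated macrophages in the mouse, had 3990.5 and 4229.5 on the primordial-labelled arrays. The middle stage arrays gave 35.1 and 37.1, and the last stage arrays 231.4 and 217.3. The pairs were tight and the stages did not overlap. The middle stage mean was 0.878% of the primordial mean and the last stage mean 5.46%. For ARG1 the middle minus primordial difference was -6.31 ± 0.21, the last minus middle difference 2.21 ± 0.21 and the last minus primordial difference -4.10 ± 0.21.

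**Figure D2:**
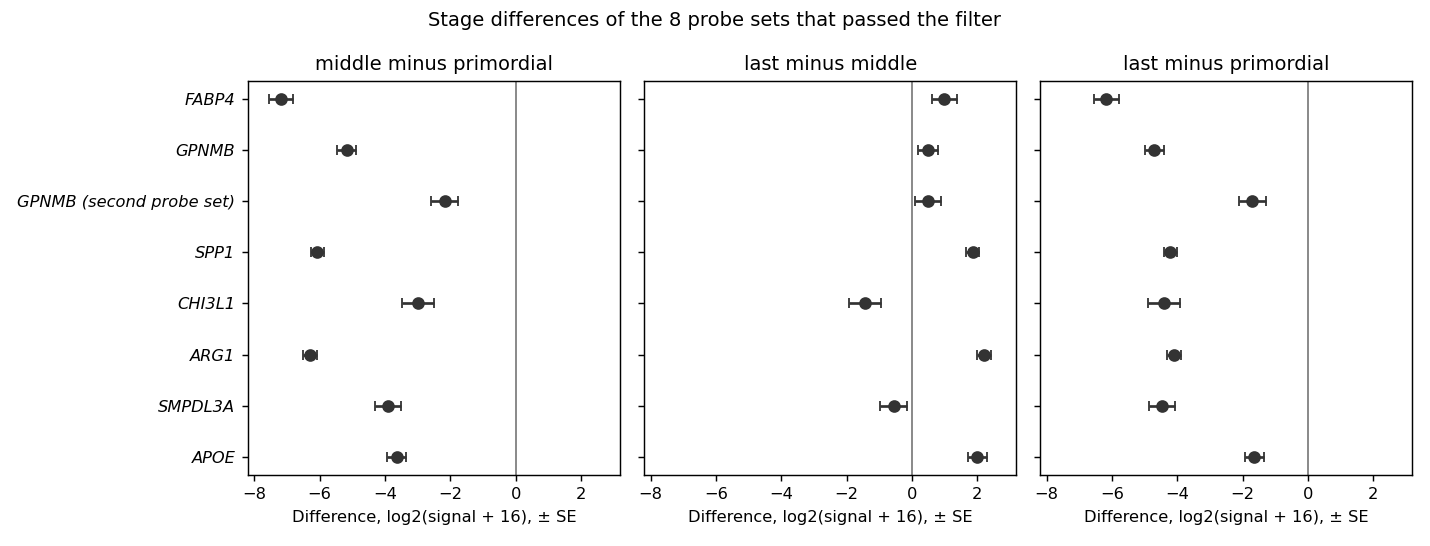
Stage differences on the log2(signal + 16) scale for the 8 probe sets that passed the filter, with bars of 1 SE, with a panel for each pair of stages. All points lie left of 0 in the left and right panels, which set the later stages against primordial. In the middle panel, last minus middle, SPP1, ARG1 and APOE lie near 2, while CHI3L1 and SMPDL3A lie left of 0.

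In the fit across all probe sets, 22.5% of the 5432 genes tested were called lower in middle minus primordial (adjusted p under 0.05, limma) and 22.9% higher. These shares were 15.8% and 17.2% in last minus primordial, and 7.23% and 8.8% in last minus middle. Calls of the 7 genes themselves are not given. For all 7, both middle stage arrays lay below both primordial arrays, as they did for 35.4% of genes tested. In last minus primordial the last stage arrays of all 7 also lay below, against 31.9%. In last minus middle the arrays did not overlap for 4 genes that were higher and for CHI3L1, which was lower. The backgrounds for these were 29.8% and 27.9%. The genes were chosen with these contrasts known, so nothing is read from the counts. FABP4, CHI3L1 and the second GPNMB probe set also passed the filter (mean signal of 91.3) only through the primordial-labelled arrays. Their low later signals were thus partly fixed in advance. Their middle and last stage means were 4.15 and 26.2 for FABP4, 74.1 and 14.6 for CHI3L1, and 35.5 and 56.3 for that GPNMB probe set. The 3 contrasts also share arrays and are not independent of each other.

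Each of the 24 differences of the 8 probe sets kept its sign under every alternative tried, which were 15 for most probe sets and 14 for CHI3L1 and the second GPNMB probe set. They included quantile normalization and centring of every array on its own median. The arrays had been scaled by the authors to a common trimmed mean, and this left a median over all tested probe sets of 0.22 in middle minus primordial. The last minus middle median was -0.07 and the last minus primordial median 0.14. Centring on the array median gave -0.20, 0.12 and -0.09, and after quantile normalization they were 0.04, 0.01 and 0.04.

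Over the 6 arrays, the profiles of the 7 genes correlated with each other at Pearson r between 0.618 for CHI3L1 with APOE and 0.997 for SPP1 with ARG1. With 2 arrays a stage such values are set largely by the stage steps, and they are a description only. The gene outside the 7 whose profile lay nearest to their mean was IL4R, a receptor chain for interleukins 4 and 13, at r = 0.9991. It had signals of 2040.2 and 1697.1 on the primordial-labelled arrays, 220.4 and 226.5 on the middle stage arrays, and 302.6 and 354.8 on the last stage arrays. RNF149, a ubiquitin ligase, NXF1, an mRNA export factor, and GLA, the lysosomal alpha-galactosidase, came next. They were followed by TNIP1, PPP4R2, HMGA1, SEC31A, CD53, a leukocyte tetraspanin, and TCN1, a vitamin B12 carrier, at r = 0.9974.

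The nearest profiles of the single genes differed. SPP1 and ARG1 shared CDV3, at r = 0.9978 and 0.9987, and IL1A, which encodes interleukin 1 alpha, at r = 0.9961 and 0.9979. ARG1 also lay near the chemokine CXCL8 at r = 0.9978, and GPNMB lay nearest to IL1B, which encodes interleukin 1 beta, at r = 0.9978. FABP4 lay nearest to STX11, a membrane fusion protein of immune cells, at r = 0.9990. SMPDL3A lay near MFSD1, a lysosomal membrane transporter, at r = 0.9971. APOE lay nearest to IFI30, a lysosomal thiol reductase, at r = 0.9983 and to ATF4, the transcription factor of the amino acid response, at r = 0.9970. CHI3L1 lay nearest to ASL, the argininosuccinate lyase, at r = 0.9982. The genes named are a selection of the near ones, not in every case the closest. Pearson's r takes no account of the size of a change. In middle minus primordial ASL differed by -0.46 ± 0.25, against -2.98 ± 0.49 for CHI3L1, and RNF149 by -0.70 ± 0.19.

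Companion lists of genes were set beside the 7. They were chosen with earlier results of these data known, so their counts and p-values are a description and no independent test. Most genes named in reports on lipid-laden macrophages in other tissues moved in the same direction as the 7 genes between the primordial and middle stages. Of 21 such genes on the array 20 were tested, and 19 fell at the middle stage, beside 22.5% of all genes tested. The median difference was -1.97 over the 20, against 0.06 over all genes tested. ACP5, the tartrate-resistant acid phosphatase of macrophages and osteoclasts, had 164.5 and 129.3 on the middle stage arrays, against 3964.8 and 3849.1 on the primordial-labelled arrays. Its difference was -4.60 ± 0.22 (adjusted p = 2.3e-06, limma). Both of its later stages were low, with 137.2 and 146.9 at the last stage.

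The lysosomal proteases of this list fell too. CTSZ, a lysosomal carboxypeptidase, fell by 4.39 ± 0.26 on the log2 scale (adjusted p = 6.32e-06, limma), and CTSD fell by 2.75 ± 0.21 (2.38e-05). LGMN fell by 2.44 ± 0.23 (adjusted p = 5.66e-05, limma) and CTSS fell by 2.81 ± 0.36 (0.000296). CAPG, an actin-capping protein, fell by 3.92 ± 0.27 (adjusted p = 1.36e-05, limma). LGALS3, the galactoside-binding lectin that marks activated macrophages, had 637.1 and 839.1 on the middle stage arrays, against 10289.8 and 8673.9 on the primordial-labelled arrays. TYROBP, the adaptor that passes on signals from TREM2 and related receptors, fell by 3.75 ± 0.31 (adjusted p = 3.19e-05, limma). TREM2 itself had no probe set annotated to it alone. LAMP2, a lysosomal membrane protein, was the gene of this list that did not pass, at 0.15 ± 0.15 (adjusted p = 0.434, limma), a value whose sign and call depended on the setting. It was -0.26 after centring on the array median and 0.52 after quantile normalization, where it passed (adjusted p = 0.0214, limma), and its probe sets included calls in both directions.

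From the primordial to the last stage 18 of the 20 fell and none rose, with a median of -1.64. Of all genes tested 15.8% fell there and 17.2% rose. CD63, at -0.25 ± 0.13 (adjusted p = 0.177, limma), and LAMP2 did not pass, though CD63 did after centring on the array median (-0.47, 0.02). Between the middle and last stages the median was 0.39, against 0.02 over all genes. There CTSZ, CAPG, CD9 and PLA2G7 rose by 0.84 to 1.13, and the other 16 did not pass. Of all genes tested 8.8% rose at this step, beside these 4 of the 20. That count was 0 without the first middle stage array, 2 without the second last stage array and 8 after centring on the array median.

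**Figure D3:**
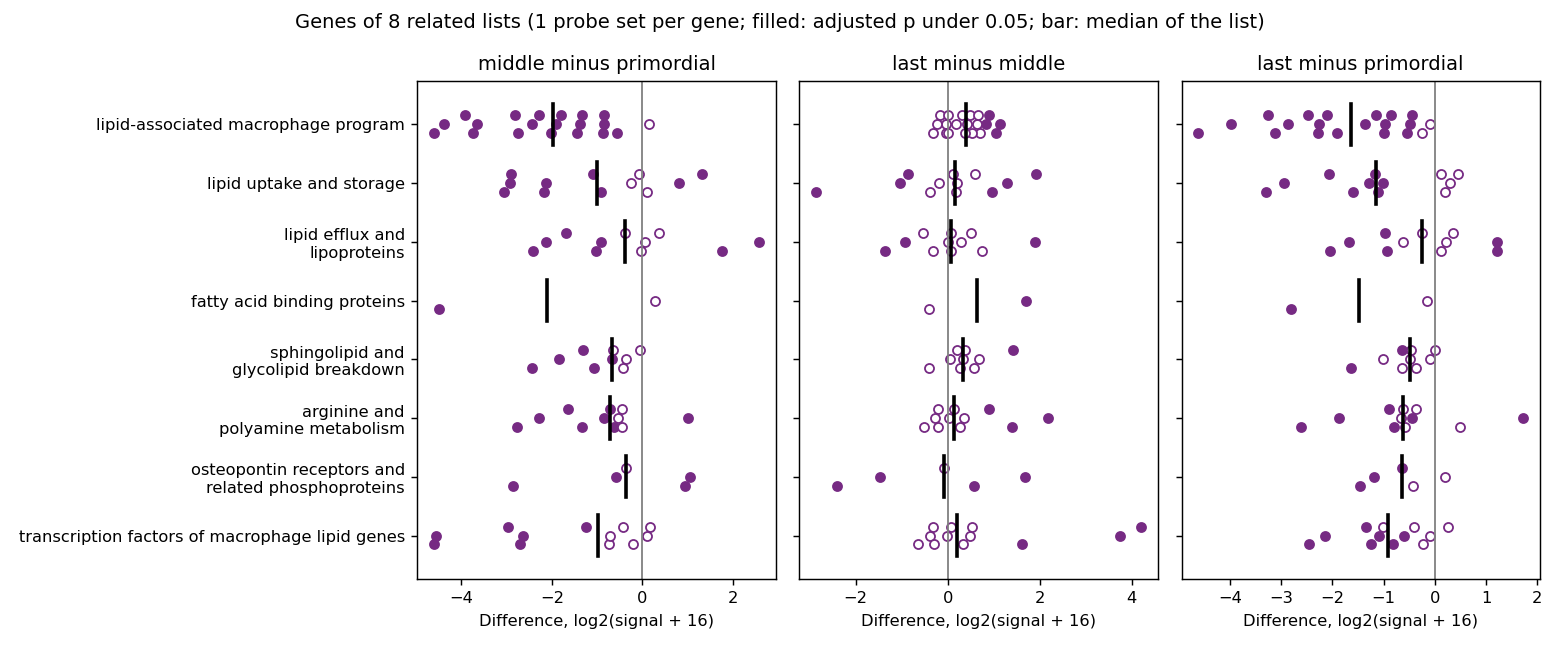
Differences on the log2(signal + 16) scale for the tested genes of 8 related lists, 1 probe set per gene, with a panel for each pair of stages, whose horizontal axes differ in range. Filled points passed the test (adjusted p under 0.05, limma) and bars are list medians. The lipid-associated macrophage list lies left of 0 in the left and right panels, except LAMP2 in the left. The sphingolipid and glycolipid list also lies left of 0 in the left panel. In the middle panel all 8 lists have points on both sides of 0.

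Genes of lipid uptake and storage were divided. Of 12 tested, 7 fell and 2 rose from the primordial to the middle stage, beside 22.5% of all genes tested that fell and 22.9% that rose. These background shares apply to the middle minus primordial counts of the following lists as well. For last minus primordial counts the shares were 15.8% lower and 17.2% higher, and for last minus middle 7.23% lower and 8.8% higher. A count near its share is not read as a result about a list. PLIN2, the coat protein of lipid droplets in most cells, had 839.3 and 881.7 on the middle stage arrays, against 7521.9 and 7041.0 on the primordial-labelled arrays. It fell by 3.06 ± 0.17 on the log2 scale (adjusted p = 5.49e-06, limma) and stayed low at the last stage, with 906.1 and 968.8. ACSL4, which activates arachidonic acid, fell by 2.92 ± 0.20 (adjusted p = 1.42e-05, limma), and LIPA, the lysosomal acid lipase, fell by 2.18 ± 0.23 (0.000104). The triglyceride lipase PNPLA2 fell by 2.13 ± 0.22 (9.91e-05).

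The lipoprotein receptor VLDLR rose at the middle stage by 1.31 ± 0.18 (adjusted p = 0.000371, limma), and so did lipoprotein lipase, LPL, by 0.80 ± 0.25 (0.0259), a call that 7 of 16 alternatives removed. The count of 7 that fell was 4 without the first middle stage array. Relative to the primordial arrays, 8 genes of the list fell at the last stage and none rose. In last minus middle 3 rose, led by ACSL4 at 1.91 ± 0.20 (adjusted p = 0.000342, limma), and 3 fell, led by LPL at -2.87 ± 0.25 (0.000116). When either middle stage array was left out, 1 gene was called lower there.

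Among 11 tested genes of cholesterol efflux and lipoproteins, 5 fell and 2 rose at the middle stage relative to the primordial arrays, and 3 fell without the first middle stage array. The 2 that rose, and the 3 without that array, were close to the background of 22.9% higher and 22.5% lower. Of the genes that export cholesterol from the lysosome, NPC2 fell by 2.42 ± 0.23 (adjusted p = 6.56e-05, limma) and NPC1 fell by 2.13 ± 0.22 (9.37e-05). Only 1 of the 2 tested NPC2 probe sets was called there. APOA1, the main protein of high-density lipoprotein, fell by 1.68 ± 0.27 (adjusted p = 0.00101, limma). It then rose at the last stage by 1.90 ± 0.27 relative to the middle stage (0.00177). APOD, a lipocalin apolipoprotein, rose by 1.76 ± 0.25 (adjusted p = 0.000508, limma) and CYP27A1, the sterol 27-hydroxylase, by 2.58 ± 0.20 (2.26e-05).

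NR1H3, which encodes the sterol receptor LXR alpha, fell by 1.02 ± 0.26 (adjusted p = 0.0109, limma), a call lost without the first primordial array (0.0555) or the first middle stage array (0.0852). ABCA1, the cholesterol exporter, was at -0.04 ± 0.23 (adjusted p = 0.904, limma). Between the last and primordial stages 4 genes of this list fell and 2 rose, and 2 fell when either primordial array was left out. Probe sets of PLTP, the phospholipid transfer protein, gave opposite calls in middle minus primordial, with the brightest at -0.92 ± 0.23 and the mean of its probe sets at 0.36.

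Of the fatty acid binding proteins beside FABP4, 2 of 6 genes were bright enough to test. FABP5, the epidermal type that macrophages also make, had 444.8 and 373.5 on the middle stage arrays, against 10437.7 and 8808.9 on the primordial-labelled arrays. It fell by 4.50 ± 0.26 (adjusted p = 5.82e-06, limma) and was higher again at the last stage than at the middle stage, by 1.70 ± 0.26 (0.00252). FABP3, the heart type, had 1781.1 and 1813.8 on the middle stage arrays, against 1261.3 and 1760.4 on the primordial-labelled arrays, a difference of 0.27 ± 0.32 (adjusted p = 0.52, limma) that was -0.15 after centring on the array median.

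Sphingolipid and glycolipid breakdown, the pathway nearest to SMPDL3A, had 9 tested genes, of which 5 fell and none rose in middle minus primordial. GM2A, the activator of ganglioside breakdown, fell by 2.43 ± 0.37 (adjusted p = 0.000752, limma), GLA fell by 1.84 ± 0.19 (8.32e-05) and PSAP, the precursor of the saposins, fell by 1.32 ± 0.23 (0.00143). Only 1 of the 2 tested GM2A probe sets was called there. SMPD1, acid sphingomyelinase, had 237.8 and 358.7 on the middle stage arrays, against 475.9 and 455.7 on the primordial-labelled arrays, and did not pass (-0.64 ± 0.26, adjusted p = 0.0644, limma). It did pass after quantile normalization (-0.91, 0.0205), after centring on the array median (-1.06, 0.01) and without the second middle stage array (-0.92, 0.0376). GLA and HEXA also fell at the last stage relative to the primordial arrays. That count of 2 was 1 when either primordial array or the first last stage array was left out, and 4 without the second last stage array.

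In arginine and polyamine metabolism, the pathway of ARG1, 7 of 11 tested genes fell and 1 rose in middle minus primordial, and 4 fell without the first middle stage array. SLC7A1, the transporter that brings arginine into the cell, fell by 2.76 ± 0.25 (adjusted p = 4.44e-05, limma). ODC1, which makes putrescine from ornithine, fell by 2.28 ± 0.27 (0.000202), and SAT1, which acetylates polyamines, fell by 1.34 ± 0.15 (0.000136). ARG2, the mitochondrial arginase, had 207.8 and 245.0 on the middle stage arrays, against 837.4 and 660.1 on the primordial-labelled arrays, and fell by 1.65 ± 0.24 (0.00054). Other probe sets of ARG2 and of OAZ1 gave the opposite call, and the mean of the ARG2 probe sets was at -0.41 (adjusted p = 0.26, limma).

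ASS1, which makes argininosuccinate on the way to arginine, rose at the last stage. It had 339.2 and 484.8 on the last stage arrays, against 74.7 and 78.1 on the middle stage arrays, a rise of 2.19 ± 0.32 (adjusted p = 0.00195, limma). In last minus middle ODC1 and SAT1 also rose, ODC1 not so without the first middle stage array (adjusted p = 0.0596, limma). Relative to the primordial arrays, 5 genes of the list fell at the last stage and 1 rose. The 5 became 2 without the first array of either of these stages and 3 without the second array of either. NOS2, the macrophage enzyme that competes for arginine, did not pass the filter.

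Osteopontin receptors on the array moved in both directions. In middle minus primordial the integrin chain ITGA5 fell by 2.87 ± 0.25 (adjusted p = 4.32e-05, limma) and ITGAV fell by 0.58 ± 0.20 (0.0409), a call that 7 of 16 alternatives removed. ITGB5 rose by 1.04 ± 0.20 (adjusted p = 0.00251, limma) and ITGB3 by 0.94 ± 0.28 (0.0198), which 4 of 16 alternatives removed, and ITGB1 was at -0.36 ± 0.15 (0.0654), or -0.78 (0.00213) after centring on the array median. In last minus middle ITGA5 rose by 1.69 ± 0.25 (adjusted p = 0.00228, limma), whereas ITGB3 fell by 2.41 ± 0.28 (0.000546) and ITGB5 fell by 1.47 ± 0.20 (0.00137). In last minus primordial ITGAV, ITGB3 and ITGA5 fell and none rose, but 9 of 16 alternatives removed the call of ITGAV (-0.65 ± 0.20, adjusted p = 0.0342, limma), the replicate block (0.0515) among them. CD44 had no probe set annotated to it alone.

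Of the chitinase family beside CHI3L1, OVGP1 and CHID1 were tested. OVGP1, the oviduct glycoprotein, had 433.7 and 587.8 on the middle stage arrays, against 279.1 and 197.3 on the primordial-labelled arrays, and rose by 1.05 ± 0.28 (adjusted p = 0.0121, limma), a call that 3 of 16 alternatives removed. In last minus middle it fell by 2.10 ± 0.28 (0.00119). CHID1 was at -0.10 ± 0.22 in middle minus primordial (adjusted p = 0.74, limma).

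Of 12 tested transcription factors and receptors known to act on macrophage lipid genes, 6 fell in middle minus primordial and none rose. KLF4, which macrophages induce on interleukin 4, had 369.3 and 359.2 on the middle stage arrays, against 10316.4 and 8344.9 on the primordial-labelled arrays (-4.61 ± 0.23, adjusted p = 2.64e-06, limma). It rose at the last stage by 4.21 ± 0.23 relative to the middle stage (9.46e-06). CEBPB, a myeloid and ovarian factor, fell by 4.56 ± 0.20 (adjusted p = 1.97e-06, limma) and rose by 3.74 ± 0.20 over the same steps (1.07e-05). Both had last stage signals far above those of the middle stage, with 5631.0 and 8712.7 for KLF4 and 3162.6 and 4213.7 for CEBPB.

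SPI1, the factor that sets up the myeloid lineage, fell by 2.63 ± 0.32 (adjusted p = 0.000205, limma) and IL4R fell by 2.97 ± 0.21 (1.66e-05). PPARG, the fatty acid sensor that acts on FABP4 in macrophages and fat cells, had 1309.3 and 1554.2 on the middle stage arrays, against 1613.5 and 1699.6 on the primordial-labelled arrays. Its difference of -0.21 ± 0.19 did not pass (adjusted p = 0.382, limma), but did after centring on the array median (-0.63, 0.0334). MITF, which acts on GPNMB, was at -0.73 ± 0.36 (adjusted p = 0.121, limma) and passed in 5 of 15 alternatives, among them quantile normalization (-1.06, 0.0341). TFEB, the main activator of lysosomal genes, was at 0.10 ± 0.28 (adjusted p = 0.797, limma), with a sign that changed in 4 of 15 alternatives. In last minus primordial 7 of the 12 fell, PPARG among them at -0.60 ± 0.19 (0.0372), a call that 7 of 16 alternatives removed, the replicate block (0.0541) among them. That count was 3 without the first array of either stage and 2 without the second primordial array.

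Macrophage markers moved with the 7 genes. Of 13 macrophage and monocyte markers on the array 9 were tested, and 8 fell in middle minus primordial, with none rising and a median of -2.63. Their summed signal was 12937.4 to 19170 on the primordial-labelled arrays, 2303 to 3076.9 on the middle stage arrays and 2670.7 to 7868.1 on the last stage arrays. AIF1, a calcium-binding protein of macrophages, had 333.6 and 215.9 on the middle stage arrays, against 3644.7 and 2845.8 on the primordial-labelled arrays (-3.51 ± 0.42, adjusted p = 0.000202, limma). CD163, the scavenger receptor for haemoglobin, fell by 2.33 ± 0.43 (0.00212), and CD86, a costimulatory ligand, fell by 3.66 ± 0.47 (0.000291). MRC1, the mannose receptor, had 676.5 and 360.1 on the middle stage arrays, against 848.9 and 410.4 on the primordial-labelled arrays, and did not pass (-0.25 ± 0.43, adjusted p = 0.654, limma).

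CD68, CSF1R, MSR1, C1QB and LYZ had no probe set annotated to them alone, and CD14, ITGAM, SIGLEC1 and MARCO did not pass the filter. TYROBP and SPI1 are in this marker list as well as in the lists above. In last minus primordial 6 of the 9 fell, and in last minus middle none of the 9 was called by limma. That second count was 5, all higher, without the first last stage array, and 1 without the first middle stage array. C1QC, a chain of complement C1q, had 626.4 and 2705.0 on the last stage arrays, against 773.0 and 654.3 on the middle stage arrays. In RNA from whole follicles, fewer cells of a type and less RNA per cell cannot be told apart. The part of macrophage number in the levels of the 7 genes was not tested.

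**Figure D4:**
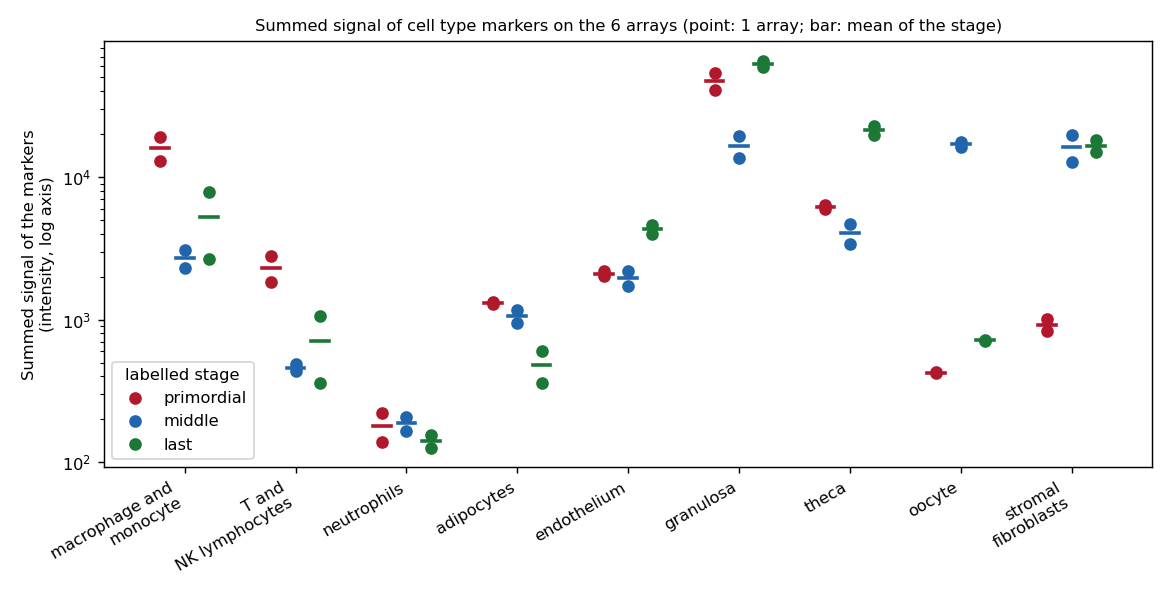
Summed signal (intensity, log axis) of cell type markers on the 6 arrays, with a point for each array and a bar for the mean of each labelled stage. The macrophage sum is highest on the primordial-labelled arrays, at 12937.4 to 19170, where the oocyte sum is lowest, at 424.2 to 426.

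Markers of other cells that could hold these transcripts were set beside them. Of 8 adipocyte markers on the array, 6 did not pass the filter, and the adipocyte genes ADIPOQ, LEP, RETN and LIPE stayed at or under 49.5, 65.6, 45.8 and 17.5 on every array. CFD, the complement factor adipsin, was brighter, with 826.2 and 782.2 on the primordial-labelled arrays, 222.9 and 174.2 on the middle stage arrays, and 165.1 and 388.7 on the last stage arrays. CFD fell by 1.94 ± 0.35 in middle minus primordial (adjusted p = 0.00182, limma) and by 1.60 ± 0.35 in last minus primordial (0.00805). LPL, also in this list, rose at the middle stage as given above. The 8 markers summed to 1277.7 to 1332.4, 948.3 to 1167.9, and 357.3 to 598 at the 3 stages. Endothelial markers, of interest for FABP4, summed to 2015.6 to 2182.1 on the primordial-labelled arrays, 1729 to 2183.1 at the middle stage and 3991.1 to 4627.3 at the last stage. Of 8 tested, PECAM1 fell and TIE1 rose in middle minus primordial, 6 rose in last minus middle and 6 rose in last minus primordial. The 6 of last minus middle were 3 without the first middle stage array. PECAM1, an adhesion molecule of endothelium and leukocytes, was at -1.97 ± 0.23 in middle minus primordial (adjusted p = 0.000169, limma) and at 1.77 ± 0.23 in last minus middle (0.00108). The part of adipocytes and endothelium in the level of FABP4 was not tested. Markers of T and NK lymphocytes summed to 1832.8 to 2782.5, 435.1 to 486.4, and 357 to 1056 at the 3 stages in the same order. Of 7 tested, 5 fell in middle minus primordial, and 2 did so without the second primordial or the first middle stage array. None of the 5 neutrophil markers on the array passed the filter, and their sum stayed between 126 and 221.3.

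Granulosa, theca and stromal markers differed between the stages as well. Granulosa markers summed to 40708 to 53838.3 on the primordial-labelled arrays, 13555.6 to 19576.4 at the middle stage and 59388.2 to 65518.9 at the last stage. Theca markers summed to 6021.2 to 6389.6, 3390.2 to 4699, and 19792.7 to 22867.8 at the same stages, and fibroblast markers to 837 to 1002.7, 12669.2 to 19877.7, and 14944.8 to 18126.6. The part of these cells in the results was not tested.

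The arrays shared a trimmed mean, set by the authors at 500.1, but their medians differed by stage. The medians were 119.3 and 125.4 on the primordial-labelled arrays, 169.9 and 165.0 on the middle stage arrays, and 140.3 and 150.6 on the last stage arrays. Between 12.8% and 18.0% of signals were at or under 16. Arrays of the same stage correlated at r = 0.964 to 0.972 over all probe sets, and arrays of different stages at 0.862 to 0.935. The excess of the 3′ over the 5′ actin control, which grows as RNA degrades, was 3.56 and 3.21 on the log2 scale for the arrays labelled primordial, 4.98 and 4.21 for the middle stage arrays, and 3.90 and 3.57 for the last stage arrays. The same excess for GAPDH ran differently, at 3.43 and 2.69, then 3.29 and 2.79, then 1.90 and 1.86. For the EF1A control it was 1.02 and 0.67, then 1.34 and 0.87, then 0.83 and 0.70, with the middle stage mean the highest, as for actin. The part of RNA quality in the results was not tested. Across the whole array 47.4% of probe sets tested were called between the middle and primordial stages, 17.2% between the last and middle stages and 33.2% between the last and primordial stages.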

How the data were processed

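Total RNA from porcine follicles was measured on 6 Affymetrix arrays, 2 for each titled stage. The deposited values are signal intensities on a linear scale, produced with GCOS per the submitters' processing notes, and their equal trimmed means show a scaling by the authors. Symbols came from the platform annotation, and probe sets with several symbols were left out. Control probe sets and the dimmest 40% (mean signal under 91.3) were removed, which left 14399. Differences on log2(signal + 16) were fitted to all 6 arrays with limma 3.58.1 in R 4.3.3 (lmFit, eBayes with an intensity trend, 3 residual and 6.33 prior degrees of freedom). Benjamini-Hochberg adjustment ran over all probe sets tested, at 0.05, two-sided. The code was tested on simulated data. A first simulation missed the recovery mark set for it, after which both the simulation and the mark were changed.

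A gene is given by its brightest probe set. The 7 genes and the companion lists were chosen with earlier results of these data known. Named from each list were up to 4 genes with the smallest p in each comparison and genes whose role is described. Of the genes described, PPARG, FABP3, MITF, TFEB, CHID1, LAMP2, ABCA1, SMPD1, ITGB1, MRC1, C1QA, C1QC, CFD and JCHAIN were picked after their values were seen, most because they did not pass in a comparison. Likeness was Pearson's r over 6 arrays. Arrays carry no read depth, and their number, 2 a stage, limits the precision. No sequences or genome positions are given.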

Additional observations from a re-analysis of the deposited data

How the results depend on the processing

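The number of probe sets called was 6821 between the middle and primordial stages, 2481 between the last and middle stages and 4786 between the last and primordial stages. Leaving out 1 array at a time gave 4356 to 7189, 727 to 2172 and 2730 to 4297. The lowest values came without the first middle stage array (4356 and 727) and without the second primordial array (2730). Last minus middle had 1440 calls without the second middle stage array, and last minus primordial had 2900 without the first primordial array. Of the calls, 62.7%, 42.3% and 59.7% were higher in the later stage. These shares were 36.6%, 62.9% and 39.0% after centring on the array median (taken over all 23999 probe sets that are not controls), and 53.2%, 48.5% and 52.3% after quantile normalization. With the replicate number as a block the counts were 6601, 2279 and 4532. The numbers were not taken to pair the arrays, since deviations of same-numbered arrays correlated at 0.0593, -0.0476 and 0.0318.

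Of 354 recomputed differences of the 7 genes, 319 moved by less than the spread between replicates, 35 moved by more and 0 changed sign. Among the other named genes 15 values changed sign, all but that of PLTP from differences that had not passed. In middle minus primordial ABCA1 came to 0.02 without the first primordial array and 0.27 without the second middle stage array, with a range of -0.34 to 0.27 over the arrays left out. MRC1 came to 0.26 and 0.19 in the same settings (range -0.76 to 0.26) and CHID1 to 0.13 without the first middle stage array (range -0.33 to 0.13). TFEB came to -0.26 after quantile normalization, -0.32 after centring on the array median, -0.01 without the first primordial array and -0.11 without the second middle stage array (range -0.11 to 0.31). The mean of the PLTP probe sets was 0.36. Centred on the array median, FABP3 came to -0.15 and LAMP2 to -0.26, and the mean of the LAMP2 probe sets was -0.54 (adjusted p = 0.0379, limma), whereas quantile normalization gave LAMP2 0.52 (0.0214). In last minus primordial MRC1 came to 0.03 without the first primordial array (range -0.99 to 0.03). In last minus middle CFD came to -0.24 without the second last stage array (range -0.24 to 0.92). The cause was not tested. Signals at or under 16, such as FABP4 after the primordial stage, bound what a fold can show.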

Other observations

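The 2 last stage arrays differed from each other in immune genes outside the 7. JCHAIN, the joining chain of secreted antibodies, had 140.2 and 133.6 on the primordial-labelled arrays, 566.5 and 562.3 on the middle stage arrays, and 282.7 and 2544.7 on the last stage arrays. CD163 had 437.9 and 1231.3 on the last stage arrays, and FCER1G, an immune receptor adaptor, had 152.9 and 490.6. Without the second last stage array C1QA was at -1.94 in last minus primordial (adjusted p = 0.00691, limma) and C1QC at -2.31 (0.00219), whereas with both arrays they did not pass, at -1.10 ± 0.50 and -1.27 ± 0.56 (0.118 and 0.112). Among the 7 genes, APOE, SPP1, SMPDL3A, FABP4 and CHI3L1 followed the same order between these arrays, the last 2 at low signals. ARG1, with 231.4 and 217.3, and GPNMB, with 336.4 and 213.7, did not.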
